A study of Rattus norvegicus with 36 samples.

Results

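Liver expression in 30 rats dosed with TBBPA-DBPE was compared with that in 6 rats given the corn oil vehicle alone, to ask what separates the vehicle livers from those of every dose. The rule takes in every animal of the series, so the comparison rests on 36 of 36 animals and on all 31042 probe sets of the array other than its controls. TBBPA-DBPE is a brominated flame retardant, a dibromopropyl ether of tetrabromobisphenol A. The animals were male Harlan Sprague Dawley rats aged 7 weeks at the start, with 6 rats in the vehicle group and in each of 5 dose groups, at 0.1, 0.94 and 9.4 mg/kg on the low side and 94.3 and 943 mg/kg on the high side. Doses were given by gavage in 5 mL/kg of corn oil on 5 days in a row, and the left liver lobe was taken 1 day after the last dose. Gavage and corn oil are therefore common to both sides of the comparison. One array was run per animal, and the p-values below measure the spread between animals. Expression is given as log2 values, on which a difference of 1 is a doubling.

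The liver meets foreign compounds through receptors that switch on sets of detoxifying genes. The aryl hydrocarbon receptor acts on Cyp1 genes, CAR and PXR on Cyp2 and Cyp3 genes, PPARalpha on fatty acid oxidation, and NRF2 on antioxidant and glutathione genes. Hepatocytes also make cholesterol and bile acids, turn amino acids into glucose and urea, and rebuild serine and asparagine when the stress regulator ATF4 is active. A response to the compound that is shared by all doses would appear as a difference between the 30 dosed animals and the vehicle animals, and a response that depends on dose as a difference among the 5 doses.

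No probe set passed the test between dosed and vehicle livers. Of 31042 probe sets, 0 (0% of those tested) passed an adjusted p of 0.05 in limma, and the smallest adjusted p was 0.786. At an unadjusted p under 0.05 there were 904 probe sets higher in dosed animals (2.91%) and 816 lower (2.63%), together 1720 or 5.54%, where 1552.1 would be below that level by chance alone. A linear model without moderation also called 0, with 958 higher and 848 lower at an unadjusted p under 0.05. Likewise, in 0 probe sets (0%) did the 6 vehicle values lie wholly above or wholly below the 30 dosed values. The 6 vehicle animals contribute 83.3% of the variance of the difference, so their number sets its precision.

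**Figure D1:**
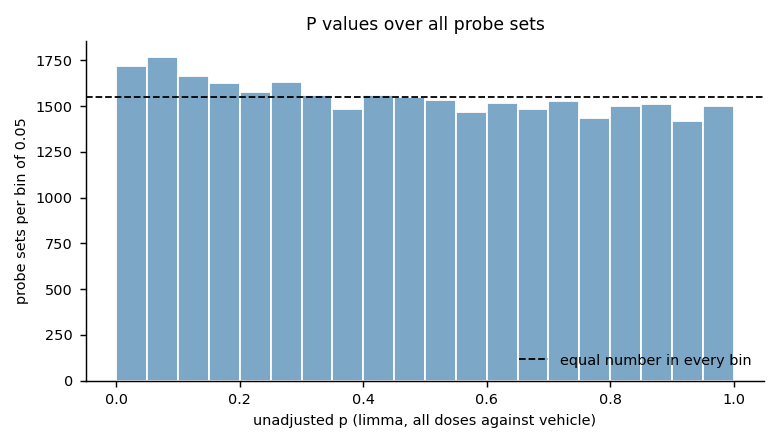
Number of probe sets (vertical axis) in each 0.05-wide bin of the unadjusted p (horizontal axis) for all doses against vehicle, with a dashed line at the 1552.1 expected in every bin if no probe set differed. The first bin holds 1720 probe sets and the next holds 1769, so there is no peak at the smallest p.

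The differences that were measured were small. The median standard error of a difference was 0.064 on the log2 scale, and the 95% interval excluded a 1.5-fold difference in either direction for 99.2% of probe sets and a 2-fold difference for 99.9%. These shares are over all probe sets without a filter, those below the array medians included. They were not worked out for brighter probe sets alone. Over 14217 genes, each represented by its brightest probe set, the median difference was 0.0037 and the median size of a difference was 0.045. Dosed animals had the higher mean for 7418 genes (52.2%) and the lower mean for 6799 (47.8%). At an unadjusted p under 0.05 stood 790 genes (5.56%), 449 higher (3.16%) and 341 lower (2.4%), and these shares are the background for the counts of named groups that follow. Among the 5 doses, 0 probe sets (0%) passed limma's F test, and the smallest adjusted p was 0.622. At an unadjusted p under 0.05 there were 1601 probe sets (5.16%) and 785 genes (5.52%) in that test.

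No difference in array quality was detected between the groups. For 14 measures, among them the signal of the 3′ over the 5′ end of control transcripts, the array median and the correlation with other arrays, the smallest adjusted p in a two-sided exact permutation test was 0.556. The beta-actin 3′ to 5′ difference, which grows as RNA degrades, was 1.13 ± 0.050 (SD, n = 6) in vehicle and 1.17 ± 0.11 (SD, n = 30) in dosed arrays. Correlations between arrays ran from 0.989 to 0.997.

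Genes that make serine and asparagine had higher means in dosed animals at every dose, without passing the test, and Psat1 gave the largest difference among the 20 genes with the smallest p. Psat1, the aminotransferase of serine synthesis, measured 6.66, 6.34, 7.09, 6.43, 7.61 and 6.61 in vehicle replicates 1 to 6 and from 6.44 to 8.33, with a median of 7.48, in the dosed animals. Its groups overlap: 13 of 30 dosed animals lie above the highest vehicle animal and 27 above the vehicle mean. The difference was 0.67 ± 0.20 (SE), or 1.60-fold, with an adjusted p of 0.786 in limma. By dose the Psat1 difference was 0.93, 0.45, 0.39, 1.09 and 0.51 from 0.1 to 943 mg/kg, so the 0.1 and 94.3 mg/kg groups were highest and the order did not follow the dose. Leaving out vehicle replicate 5, the highest of its group, gave 0.84, and leaving out replicate 2 gave 0.58.

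Asns, which makes asparagine, ran the same way. Its vehicle values were 6.63, 6.45, 7.13, 6.01, 7.66 and 6.72, and the dosed animals ranged from 6.58 to 8.38 with a median of 7.31. The difference was 0.57 ± 0.20 (SE; adjusted p = 0.832 in limma), with 26 of 30 dosed animals above the vehicle mean but 9 above the vehicle maximum. Vehicle replicate 5 was again the highest control animal. The other enzymes of the serine route were Phgdh, its first enzyme, with a difference of 0.45 ± 0.18, and Psph, its last, with 0.27 ± 0.097.

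Among the genes for amino acid import and folate-linked one-carbon metabolism, differences were 0.21 ± 0.078 for Slc3a2, the shared heavy chain of several amino acid transporters, 0.40 ± 0.20 for the cystine carrier Slc7a11 and 0.27 ± 0.14 for the mitochondrial folate enzyme Mthfd2. Their neighbours Slc7a5 (0.04 ± 0.10), Shmt2 (0.02 ± 0.049) and Shmt1 (-0.01 ± 0.042), a transporter and the serine hydroxymethyltransferases, lay close to 0. Slc38a2, another amino acid carrier, was at -0.11 ± 0.20. Counted together, 10 of 12 genes of serine and asparagine synthesis and amino acid import were higher in dosed animals, 5 of them at an unadjusted p under 0.05 against 3.16% of all genes, and 0 passed. The median over the list was 0.24, beside 0.0037 for all genes, and leaving out 1 animal at a time gave medians from 0.19 to 0.29. This list had been chosen with earlier results of the same animals in view, so its direction is a description.

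The mean log2 value over these 12 genes ran from 6.91 to 7.51 in vehicle animals, with a median of 7.00, and from 7.06 to 7.84 in dosed animals. All 30 dosed animals lay above the vehicle median, and 7 lay above the vehicle maximum. Most dosed livers thus sat inside the vehicle range. List medians by dose were 0.31 at 0.1, 0.10 at 0.94, 0.14 at 9.4, 0.51 at 94.3 and 0.06 at 943 mg/kg, the same vehicle animals being the reference each time.

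**Figure D2:**
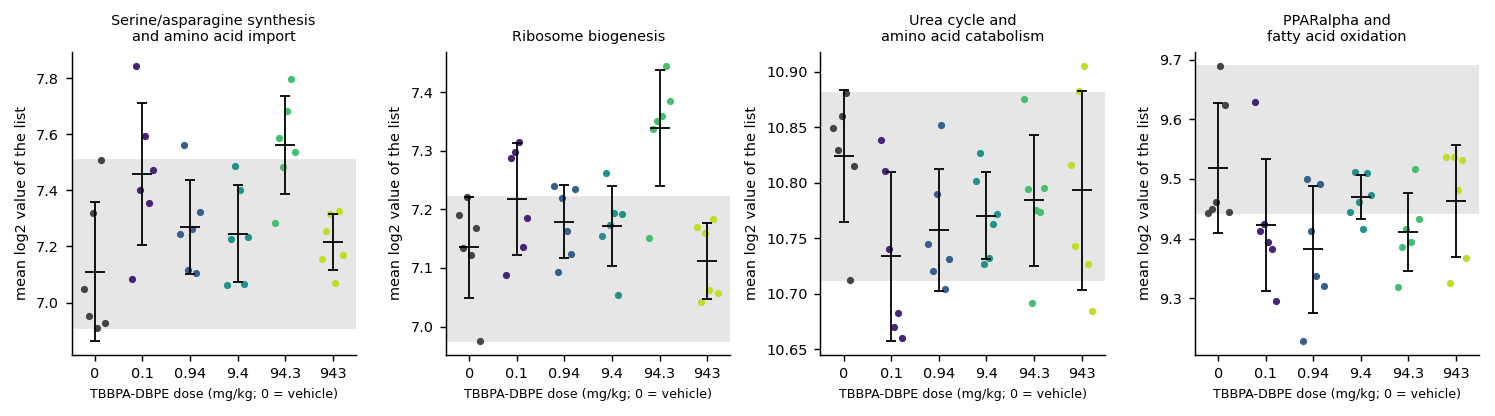
Mean log2 value over the measured genes of 4 lists (vertical axes) in each animal, by dose in mg/kg with 0 for vehicle (horizontal axes). Points are animals, bars are mean ± SD of 6 animals and the grey band is the vehicle range. For serine and asparagine synthesis all dosed animals lie above the vehicle median of 7.00 but 23 of 30 lie inside the vehicle range, and for ribosome biogenesis the 94.3 mg/kg group is highest.

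Lists of other genes of the ATF4 response and of protein synthesis had medians nearer to 0, though single genes did not all lie there. Of 18 measured genes of the ATF4 and unfolded protein response, 13 were higher, with a median of 0.07. The median was 0.18, 0.14 and 0.12 at the 3 lower doses and -0.02 and -0.07 at 94.3 and 943 mg/kg, so its sign was not shared by every dose. Atf5, a regulator in that response, was at 0.21 ± 0.086. Ddit4, a stress-induced brake on mTOR, gave one of the 3 largest positive differences of any gene, 0.68 ± 0.35, with vehicle values of 6.09, 5.40, 6.74, 6.06, 7.33 and 5.74 and dosed values of 5.23 to 8.56. The wide Ddit4 range in both groups left its interval at -0.03 to 1.40. Chaperones of the endoplasmic reticulum did not share the sign: Hspa5 was at -0.07 ± 0.051 and Hsp90b1 at -0.04 ± 0.052. Of 17 cytosolic aminoacyl-tRNA synthetases, which load amino acids onto tRNAs, 14 were higher with a median of 0.03, and Lars1 (0.13 ± 0.051) and Yars1 (0.16 ± 0.069) had unadjusted p under 0.05. Ribosome biogenesis genes were higher in 17 of 19 cases with a median of 0.06, and the 2 under an unadjusted 0.05 were Nop16 (0.11 ± 0.052) and Rrp9 (0.09 ± 0.041). In that list the median was 0.20 at 94.3 mg/kg and -0.03 at 943 mg/kg. None of these genes passed the test. For all genes, 52.2% were higher in dosed animals, and 3.16% were higher at an unadjusted p under 0.05. Members of a list can be expressed together, so they are not independent counts.

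Several of the genes with the smallest p had small differences and tight groups. Ppie, a peptidyl-prolyl isomerase of the spliceosome, measured 7.19, 7.05, 7.17, 7.20, 7.20 and 7.16 in vehicle livers and 7.15 to 7.54, with a median of 7.32, in dosed livers. The difference of 0.16 ± 0.041 (SE) put 28 of 30 dosed animals above the vehicle maximum, with 0.18, 0.17, 0.12, 0.17 and 0.15 at the 5 doses in rising order. Gnpnat1, an enzyme of amino sugar synthesis, was at 9.34, 9.38, 9.36, 9.24, 9.39 and 9.32 in vehicle and at 9.35 to 9.68 in dosed animals. Its difference was 0.15 ± 0.042, with 27 dosed animals above the vehicle maximum and 30 of 30 above the vehicle mean. For Ppie and Gnpnat1 the spread within vehicle, 0.057 and 0.056 (SD), was smaller than the difference, and the adjusted p over all probe sets was 0.786 in limma for both.

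Tomm6, a small subunit of the outer membrane import pore of mitochondria, was higher by 0.18 ± 0.051, with vehicle values of 8.57, 8.66, 8.56, 8.60, 8.71 and 8.70 and 25 dosed animals above them all. Sdhaf4, an assembly factor of succinate dehydrogenase, was higher by 0.30 ± 0.090 and lay between 0.26 and 0.36 at every dose. Rps6, a protein of the small ribosomal subunit, was higher by 0.15 ± 0.042, and its lowest dosed animal (11.97) lay just above the vehicle mean of 11.96. The vehicle animal with the highest Rps6 value (12.11) was above 17 of the 30 dosed animals. Mcrip2 had a difference of 0.24 ± 0.064 and 20 dosed animals above the vehicle maximum.

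On the lower side, again without passing, Slc30a1 was the named gene with the smallest p. This transporter, which carries zinc out of cells, measured 6.71, 6.53, 6.53, 6.84, 6.40 and 6.85 in vehicle animals and 6.00 to 6.78, with a median of 6.32, in dosed animals. The difference was -0.31 ± 0.080 (SE; adjusted p = 0.786 in limma). Of the dosed animals, 20 lay below the vehicle minimum, and the difference was -0.29, -0.36, -0.35, -0.35 and -0.22 from the lowest to the highest dose. The metallothionein Mt2A, a zinc-binding protein, was at -0.40 ± 0.22, or -0.25 without vehicle replicate 3, and its relative Mt1 at 0.05 ± 0.12. The Mt1 difference was smaller than its error, and no list of zinc-handling genes was counted.

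Ptprb, a receptor phosphatase of endothelial cells, had vehicle values of 8.76, 8.64, 8.62, 8.68, 8.64 and 8.72 and dosed values of 8.13 to 8.75, with a median of 8.48. The difference was -0.21 ± 0.059 (SE; adjusted p = 0.786 in limma), and 27 of 30 dosed animals lay below the vehicle minimum. The 3 that did not were all given 9.4 mg/kg, the dose at which the difference was smallest at -0.09. A second probe set for Ptprb gave -0.07. Hspg2, the basement membrane proteoglycan perlecan, is not in the list of endothelial markers and was named for its small p. It was at -0.21 ± 0.058 with 15 dosed animals below the vehicle minimum. Among listed endothelial markers besides Ptprb, Pecam1 was at -0.08 ± 0.091, Kdr at -0.07 ± 0.057 and Lyve1 at 0.02 ± 0.053. Stab1 was at 0.16 ± 0.074, or 0.10 without vehicle replicate 3. Over 14 endothelial markers, 10 were lower and the median was -0.03. In whole liver, fewer cells of a type and less RNA per cell cannot be told apart.

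Flii, an actin-remodelling gelsolin relative, had the smallest spread in this direction. Its vehicle values were 7.44, 7.41, 7.37, 7.53, 7.44 and 7.42, and its dosed values ran from 7.18 to 7.48 with a median of 7.31. The difference of -0.11 ± 0.034 left 25 dosed animals below the vehicle minimum, and the 5 doses lay between -0.14 and -0.09. Tnrc6b, a partner of Argonaute in microRNA silencing, was at -0.19 ± 0.058. Cnst, a gap junction trafficking protein, was at -0.21 ± 0.060, but at -0.12 without vehicle replicate 1, and both other probe sets for Cnst gave -0.03.

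**Figure D3:**
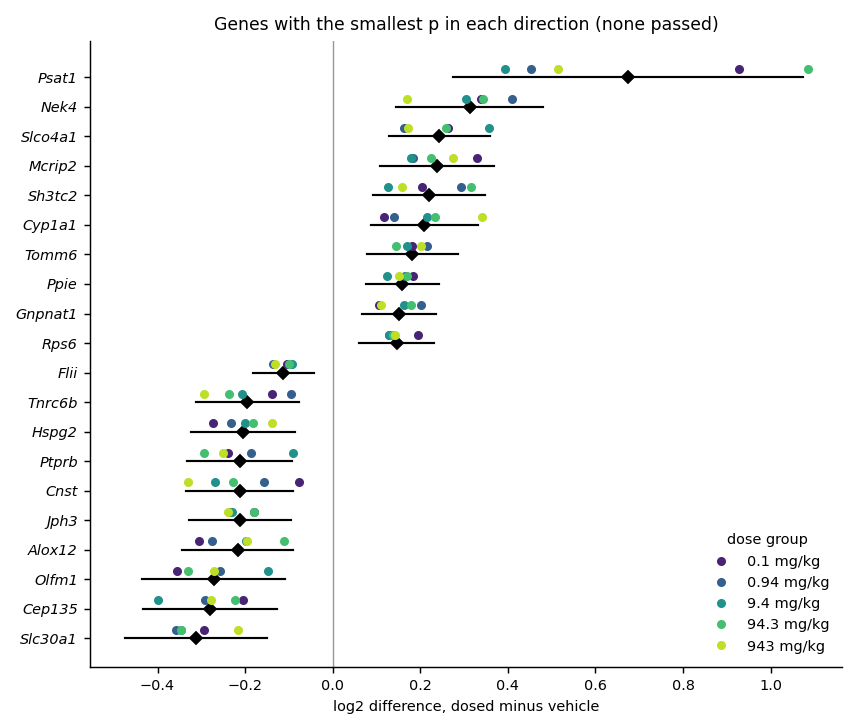
Log2 difference, dosed minus vehicle (horizontal axis), for 20 genes (vertical axis), 10 per direction, chosen by smallest p. Diamonds and lines are the difference over all 30 dosed animals with its 95% interval, and coloured dots are the 5 dose groups, which share the same 6 vehicle animals. For each of these 20 genes every dose lies on the same side of 0, and none passed the adjusted threshold. The genes were chosen on the mean of these same 5 differences, so the shared sign follows largely from the choice and is no further support.

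Dim probe sets filled part of the list of smallest p. In 8 of those 20 genes both group means lay below 4.59, the lowest array median: Slco4a1, Nek4, Cyp1a1 and Sh3tc2 on the higher side and Cep135, Jph3, Alox12 and Olfm1 on the lower side. Slco4a1, an organic anion and thyroid hormone transporter, had the smallest p of any named gene, with vehicle values of 3.81, 3.99, 4.01, 3.86, 3.95 and 3.98 and dosed values of 3.90 to 4.40. Its difference was 0.24 ± 0.057 with 27 dosed animals above the vehicle maximum, while a second Slco4a1 probe set gave -0.02. Nek4, a cell cycle kinase, was at 0.31 ± 0.083, and at 0.19 without vehicle replicate 1, its lowest control animal at 3.62. The lower genes of this kind had differences of -0.28 ± 0.075 for the centriole protein Cep135, -0.21 ± 0.057 for the junctophilin Jph3, -0.22 ± 0.063 for the lipoxygenase Alox12 and -0.27 ± 0.080 for Olfm1.

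Genes by which the liver is known to answer xenobiotics lay close to vehicle. Cyp1a1, the best known aryl hydrocarbon receptor target, measured 3.60 to 4.03 in vehicle and 3.86 to 4.54 in dosed animals, below the array medians. The difference of 0.21 ± 0.060 (SE; adjusted p = 0.786 in limma) placed 20 dosed animals above the vehicle maximum. By dose it was 0.12, 0.14, 0.22, 0.23 and 0.34 in rising order, with an unadjusted p among doses of 0.0531. Cyp1a2, a second target that hepatocytes express strongly, was at -0.04 ± 0.052, Cyp1b1 at 0.07 ± 0.066, and Aldh3a1 at -0.16 ± 0.067, or -0.08 without vehicle replicate 1. Over 10 measured genes of this pathway 5 were higher and 5 lower, and 1 in each direction was under an unadjusted 0.05.

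Targets of CAR and PXR had a median of -0.04, with 5 of 17 higher and 0 under an unadjusted 0.05. Examples were the drug-metabolising cytochromes Cyp3a23-3a1 (-0.10 ± 0.065), Cyp3a2 (-0.04 ± 0.035) and Cyp2c6v1 (0.00 ± 0.042) and the glucuronosyltransferase Ugt2b1 (-0.18 ± 0.10). They do not show the higher side, where Por ran from 7.4 to 8.1 in vehicle and from 7.5 to 8.2 in dosed animals. NRF2 and glutathione genes were higher in 9 of 17 cases with a median of 0.00, and Nqo1, the quinone reductase, was at 0.09 ± 0.089. Thyroid hormone handling genes had a median of 0.02 and p53 targets one of 0.04, with 0 genes under an unadjusted 0.05 in either.

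Most measured genes of fat oxidation and bile acid synthesis had lower means in dosed animals, and none passed. Of 21 measured PPARalpha and fatty acid oxidation genes 19 were lower, with a median of -0.06, and of 15 bile acid genes 14 were lower, with a median of -0.04. For all genes the share lower was 47.8%. Members of both lists are expressed together in hepatocytes and are not independent counts. Ehhadh, a peroxisomal oxidation enzyme, measured 10.54 to 11.04 in vehicle and 10.13 to 10.90 in dosed animals, a difference of -0.21 ± 0.083 with 16 dosed animals below the vehicle minimum. Cyp8b1, the enzyme that sets the share of cholic acid, was at -0.21 ± 0.078 and lay between -0.28 and -0.16 at the 5 doses. The rate-limiting bile acid enzyme Cyp7a1 was at -0.02 ± 0.32. The median of the PPARalpha list was between -0.10 and -0.03 at the 5 doses.

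Amino acid breakdown and glucose production genes were also mostly lower in the pooled means. For all genes the share lower was 47.8%, and members of a list are not independent counts. In the urea cycle and amino acid catabolism list 12 of 16 genes were lower with a median of -0.05, and 3 were under an unadjusted 0.05 against 2.4% of all genes: Oat, the ornithine aminotransferase (-0.34 ± 0.14), Hal, which starts histidine breakdown (-0.20 ± 0.097), and the liver glutaminase Gls2 (-0.12 ± 0.058). The urea cycle enzymes themselves were closer to 0, with Cps1 at -0.05 ± 0.047, Otc at -0.07 ± 0.040 and Arg1 at 0.02 ± 0.041. Sds, which turns serine into pyruvate, is not in the urea cycle and amino acid catabolism list. Sds measured 6.42, 6.72, 6.10, 6.46, 5.29 and 5.71 in vehicle and 5.12 to 6.45 in dosed animals. Its difference was -0.46 ± 0.15 (SE; adjusted p = 0.800 in limma), with 28 of 30 dosed animals below the vehicle mean and 3 below the vehicle minimum, since vehicle replicate 5 was itself low. Thus serine synthesis genes were on the higher side and this serine-degrading enzyme on the lower side, in group means whose animals overlapped. Of 13 gluconeogenesis and fasting genes 10 were lower, among them Pck1 (-0.10 ± 0.14) and Pdk4 (-0.15 ± 0.19). In that list 1 gene was lower at an unadjusted p under 0.05, against 2.4% of all genes, and the smallest adjusted p in limma was 0.800. Medians of that list were -0.18, -0.06, -0.07 and -0.11 up to 94.3 mg/kg and 0.01 at 943 mg/kg, so the sign was not shared by the highest dose.

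Cholesterol synthesis genes were higher in 14 of 17 cases with a median of 0.12, and 0 were under an unadjusted 0.05. Sqle, squalene epoxidase, was at 0.28 ± 0.19 and Fdps, farnesyl diphosphate synthase, at 0.17 ± 0.094, or 0.10 without vehicle replicate 4. Medians by dose were 0.08, -0.10, 0.03, 0.34 and 0.32, so the sign was not shared by every dose. Cell cycle genes were higher in 25 of 27 cases, against 52.2% of all genes, with a median of 0.05, and 12 of the 27 were dim. Members of that list are again not independent counts. Birc5, survivin, was its only member under an unadjusted 0.05, where 3.16% of all genes were higher at that level. The Birc5 difference was 0.18 ± 0.086, with 0.12 without vehicle replicate 6. Growth hormone and sex-biased genes (median -0.05, 4 of 17 higher) and circadian clock genes (-0.06, 5 of 15 higher) had no member under that level.

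**Figure D4:**
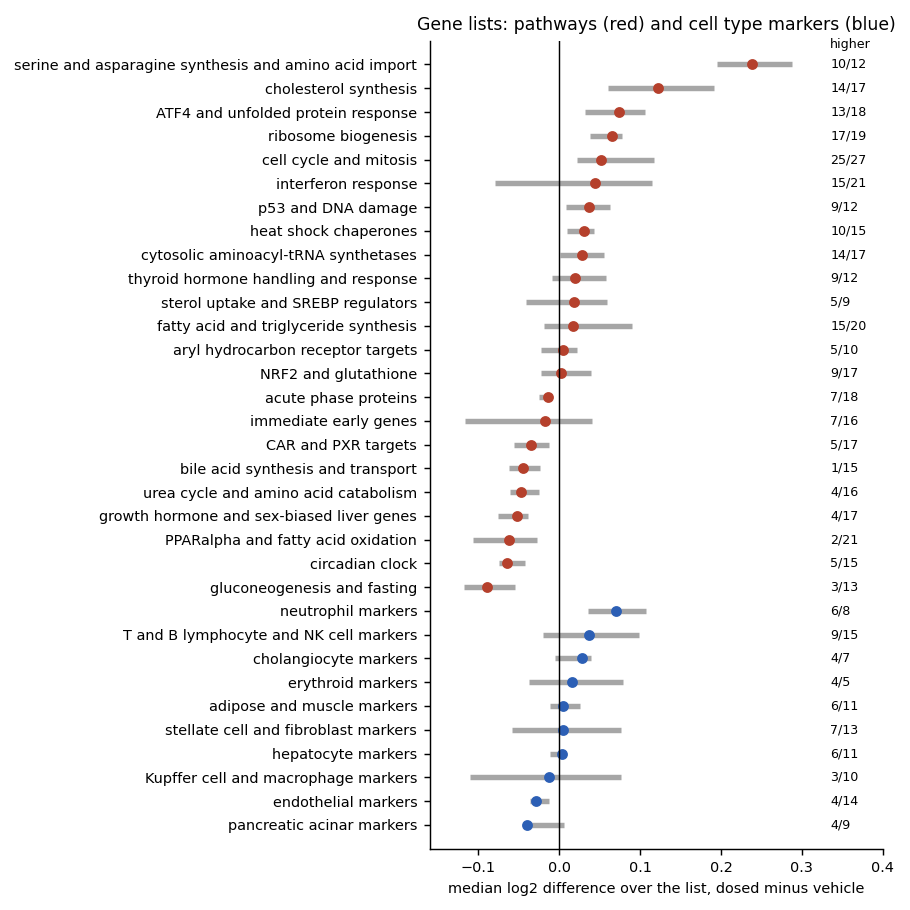
Median log2 difference, dosed minus vehicle (horizontal axis), over the measured genes of each of 33 lists (vertical axis), with pathway lists in red and cell type markers in blue. Grey bars give the range of the median when each of the 36 animals is left out in turn, and the numbers at the right are members higher in dosed animals over members measured. The serine and asparagine list is farthest from 0 at 0.24, and the bars of several lists cross 0.

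Markers of hepatocytes, the cells that make up most of the liver, were bright in every animal, with list means of 12.8 to 12.9 in both groups. Their median difference was 0.00 over 11 genes, and 1 was lower at an unadjusted p under 0.05, against 2.4% of all genes. Among other cell types, 10 Kupffer cell and macrophage markers had a median of -0.01 and 13 stellate cell and fibroblast markers one of 0.00, with 0 of either under an unadjusted 0.05. For T and B lymphocyte and NK cell markers 10 of 15 were dim and 9 were higher, with a median of 0.04. Neutrophil markers were higher in 6 of 8 cases with a median of 0.07, and 6 of the 8 were dim. Of these 8, 1 was higher at an unadjusted p under 0.05, against 3.16% of all genes. S100a9 ranged from 4.71 to 5.79 in vehicle and from 4.73 to 7.52 in dosed animals. Erythroid (median 0.02), cholangiocyte (0.03), pancreatic acinar (-0.04) and adipose and muscle markers (0.00) were as near to 0. One erythroid marker, 1 of 5, was lower at an unadjusted p under 0.05. The summed linear level of the acinar markers was 790 to 1106 in vehicle and 703 to 1337 in dosed animals, and 7 of those 9 genes were dim. The part of cell mixture in the differences above was not tested.

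Interferon response genes varied widely from animal to animal, with list means of 6.15 to 7.27 in vehicle and 6.00 to 7.43 in dosed livers. The median difference of 0.04 over 21 genes became -0.08 or 0.11 when 1 vehicle animal was left out. Immediate early genes behaved alike, at -0.02 over 16 genes with a range of -0.12 to 0.04. Heat shock chaperones (0.03), acute phase proteins (-0.01), fatty acid and triglyceride synthesis (0.02) and sterol uptake and SREBP regulators (0.02) had 0 genes under an unadjusted 0.05.

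A few genes had large differences at every dose and large spreads. Retsat, a retinol saturase, had 4 low and 2 high vehicle livers, at 11.23, 9.53, 9.51, 9.69, 9.44 and 11.03, and ran from 9.42 to 11.73 in dosed livers. The difference was 0.62 ± 0.33, and 6 dosed animals lay above the vehicle maximum. Inmt, a methyltransferase of tryptamines, was at -0.55 ± 0.35 with vehicle values from 6.63 to 9.33, and at -0.35 without vehicle replicate 1 or -0.89 without replicate 5. Pdzrn3, a ubiquitin ligase, was at -0.56 ± 0.24, with vehicle replicate 5 at 6.21 and the other vehicle animals at 7.59 to 8.38. Adh4, an alcohol dehydrogenase, was at -0.46 ± 0.24, and at -0.20 without vehicle replicate 5. Dynlt2b, a dynein light chain, was at 0.27 ± 0.10, and at 0.09 without vehicle replicate 1. Vehicle replicates 1 and 5 recur among the animals whose omission moved these values.

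Enpp1, an ectoenzyme that releases pyrophosphate, was tight in vehicle animals and wide in dosed ones. Its vehicle values were 9.78, 9.57, 9.54, 9.57, 9.39 and 9.58, and its dosed values ran from 7.51 to 9.59 with a median of 9.36. The difference was -0.54 ± 0.21 (SE; adjusted p = 0.851 in limma), with 18 dosed animals below the vehicle minimum, among them all 6 at 94.3 mg/kg. By dose it was -0.26, -0.84, -0.37, -0.94 and -0.27. The dosed SD was 0.59 against 0.13 in vehicle.

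**Figure D5:**
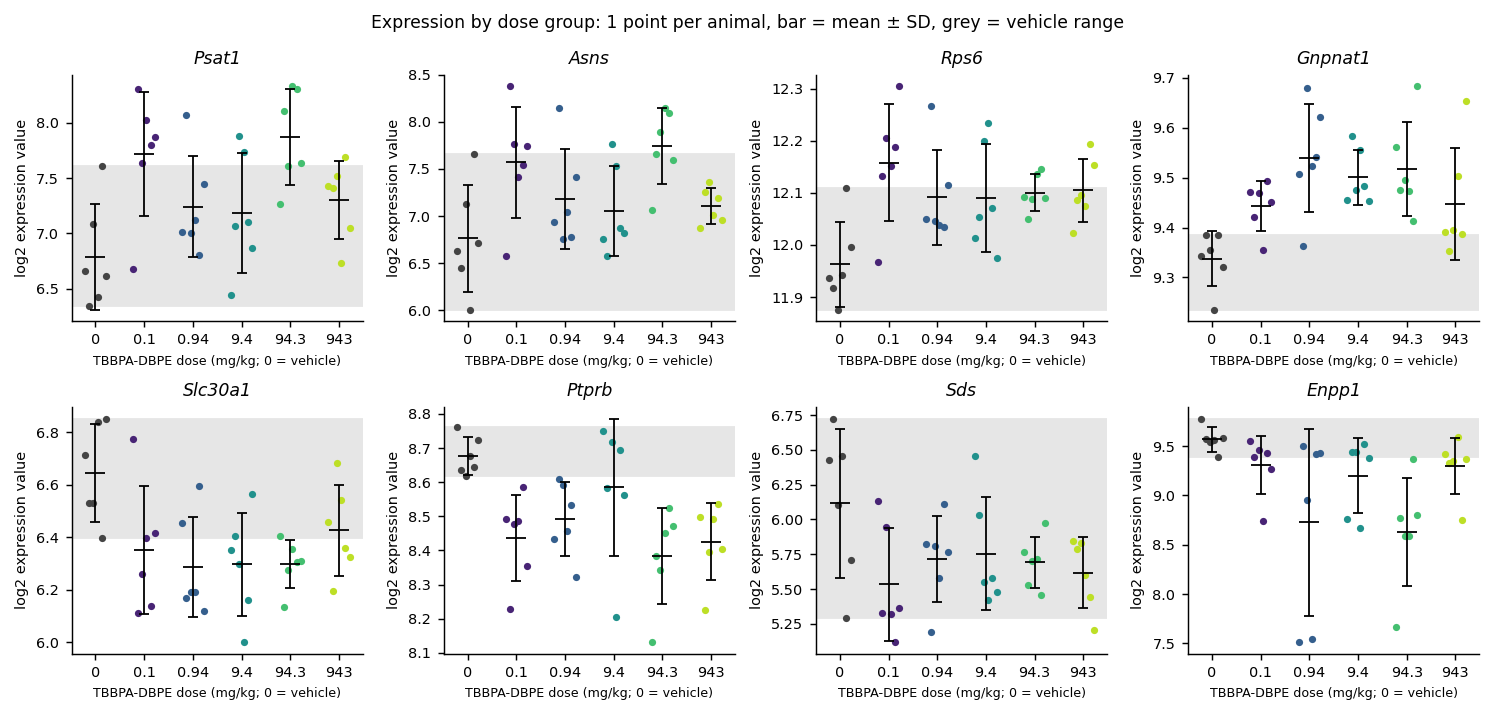
Log2 expression of 8 genes in each animal (vertical axes), by dose in mg/kg with 0 for vehicle (horizontal axes). Points are animals, bars are mean ± SD of 6 animals and the grey band is the vehicle range. Psat1 and Asns are highest at 0.1 and 94.3 mg/kg, Ptprb at 9.4 mg/kg reaches into the vehicle range, and Enpp1 spreads downward in dosed animals while its vehicle animals stay between 9.39 and 9.78.

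The largest mean differences of any gene came with wide errors. Bcl6, a repressor of female-biased liver genes, was at 0.77 ± 0.67, with dosed values from 4.71 to 9.94. Siglec5, a sialic acid receptor of myeloid cells, was at 0.75 ± 0.38 and dim. The probe set named for Ugt2b, a glucuronosyltransferase family whose near-identical members can share probes, was at -0.70 ± 0.75. Its 6 vehicle values were 12.68 to 12.82, 28 dosed animals measured at least 12.14, and 1 animal at 0.1 and 1 at 943 mg/kg measured 4.71 and 5.08. Without the first of these animals the Ugt2b difference was -0.44. A second Ugt2b probe set gave -0.87.

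Among the 5 doses, the genes with the smallest p were Pdlim2, Dlg2 and Gcfc2, each dim in both groups. Pdlim2, an adaptor protein of the cytoskeleton, was at -0.26, -0.06, 0.07, -0.43 and 0.14 against vehicle from 0.1 to 943 mg/kg, with adjusted p among doses of 0.622 in limma's F test. Dlg2, a synaptic scaffold, was at 0.05, 0.17, -0.12, 0.01 and 0.12. Gcfc2 had a pooled difference of 0.00 ± 0.048, its doses lying on both sides of vehicle. None of the 3 patterns followed the order of dose. Some lists held more members under an unadjusted 0.05 in this F test than the 5.52% of all genes. The largest shares were 10 of 19 for ribosome biogenesis and 7 of 12 for serine and asparagine synthesis and amino acid import. Cholesterol synthesis and the aminoacyl-tRNA synthetases had 7 of 17 each. Smaller shares above that of all genes included 3 of 10 aryl hydrocarbon receptor targets and 4 of 15 heat shock chaperones, while acute phase proteins had 0 of 18. None passed, members of a list are not independent counts, and the lists were chosen with earlier results known.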

How the data were processed

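Each array value is a log2 expression level of a probe set, as deposited by the authors. Per the submitters' processing notes these came from RMA in affy, which corrects background, equalises array distributions and fits probes by median polish; their versions are not given here. Per the series' design text the authors tested dose against vehicle with R/maanova; limma replaced it here. After 57 control probe sets were left out, 31042 were fitted without a filter in R 4.3.3 with limma 3.58.1: 1 mean per group, the contrast being the mean of the 5 dose means minus vehicle, plus an F test among doses. P-values are two-sided with Benjamini-Hochberg adjustment at 0.05. The code was tested on simulated data. Of the probe sets, 20826 name 1 gene, 436 several and 9780 none in the probe table, and Entrez numbers of 20758 matched the RefSeq table. Array quality was tested by exact permutation. Of 526 list genes, 468 were measured.

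Named are the 10 genes per direction with the smallest p, the 5 per direction with the largest smallest dose difference of 1 sign, the 3 with the largest difference, the 3 with the smallest p among doses, and up to 3 per list by p; further list members are named for their known roles, chosen after their values were seen. Comparison and lists were chosen with earlier results of these data known. No labels mark batches.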

Additional observations from a re-analysis of the deposited data

Results flagged for a closer look

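In groups of 6 animals, the highest or lowest animal was set apart where its gap to the next animal exceeded 0.625 of the group's range, Dixon's 95% critical value. Of 309 gene and group combinations among the named genes 29 were set apart, where chance gives about 5%. The 36 genes named outside the lists were checked in all 6 groups, and the other named genes in vehicle only. Vehicle thus held 129 of the combinations and 10 of those set apart, so that count cannot be set directly against the dose groups.

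In vehicle, replicate 1 stood low for Dynlt2b at 3.50 and high for Ugt2b1 at 12.18, Aldh3a1 at 3.25 and Agt at 11.45. Vehicle replicate 5 stood low for Pdzrn3 at 6.21, Slc16a10 at 5.31, Gls2 at 10.04 and Hsd3b5 at 11.39. The other vehicle animals were replicate 2 for Ppie at 7.05 and replicate 4 for Fdps at 11.68, both low. These values bear directly on the pooled difference, since each vehicle animal is 1 of 6.

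At 0.1 mg/kg, Enpp1 was low in replicate 4 at 8.74 and Ugt2b in replicate 1 at 4.71. At 0.94 mg/kg, high values were Mcrip2 in replicate 6 at 7.59, Rps6 in replicate 2 at 12.27 and Gcfc2 in replicate 2 at 4.13. At 9.4 mg/kg, Nek4 was high in replicate 5 at 4.84, Tomm6 in replicate 4 at 9.11, Flii in replicate 1 at 7.48 and Adh4 in replicate 6 at 8.66, while Retsat in replicate 6 at 9.58 and Ptprb in replicate 4 at 8.20 were low. At 94.3 mg/kg, Sdhaf4 in replicate 6 at 7.62, Cep135 in replicate 5 at 3.78 and Hspg2 in replicate 2 at 5.16 were low. At 943 mg/kg, Retsat in replicate 2 at 9.44, Jph3 in replicate 2 at 3.41, Enpp1 in replicate 5 at 8.75 and Ugt2b in replicate 1 at 5.08 were low, and Alox12 in replicate 5 at 3.25 was high.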

How the results depend on the processing

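Under 51 alternatives, which changed the model, variance prior, scaling, array weights, filter, doses or animals, 0 probe sets were called for all doses against vehicle. The smallest adjusted p was 0.201 without vehicle replicate 6 and 1.00 without vehicle replicate 1, and the count at an unadjusted p under 0.05 ran from 1309 without vehicle replicate 1 to 2169 without vehicle replicate 5 in fits of all probe sets. Leaving out 1 vehicle animal at a time gave 0 to 1 probe sets whose vehicle and dosed values did not overlap, the 1 being lower in dosed animals and found without replicate 5. Same-numbered animals did not deviate together: over 90 pairs the median correlation of deviations was 0.0026, and 7 of 36 animals correlated best with their own number. With the replicate number as a block, 0 probe sets were called, with 926 higher and 803 lower at an unadjusted 0.05, and 0 among the doses. Of 129 named genes 3 changed sign under some alternative, Gcfc2 among them, and 15 of 33 list medians changed sign when 1 vehicle animal was left out. The 6 vehicle animals limit the precision, and 5 doses sharing them are not 5 independent comparisons.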

Other observations

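Some of the smallest p belonged to probe sets that do not represent a gene, and these were chosen after their values were seen. The smallest of all was 1388980_at, which the probe table pairs with more than 1 gene, at 8.48 ± 0.24 (SD, n = 6) in vehicle and 8.76 ± 0.11 (SD, n = 30) in dosed animals. Next came 1398647_at, unnamed there, at 4.95 ± 0.11 and 4.68 ± 0.13. Secondary probe sets of Adgrl2, an adhesion receptor, and Polr1d, a subunit of RNA polymerases, had differences of -0.36 and 0.17, and the brightest probe sets of these genes gave -0.18 and 0.08. For Slc23a2, a vitamin C transporter, a dim probe set gave 0.29 and the brightest 0.03, and for Incenp, a chromosomal passenger protein, -0.24 and 0.02.

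In all, 10 probe sets differed by at least 1.5-fold in the mean and 2 by at least 2-fold, and both of the latter were unnamed and spread across most of their range within vehicle. The first, 1368718_at, ran from 3.55 to 8.32 in vehicle and from 3.58 to 9.63 in dosed animals, with a difference of 1.08 ± 0.72. The second, 1393108_at, ran from 4.16 to 9.53 and from 4.42 to 9.54, with a difference of 1.04 ± 0.69. Another, 1370428_x_at, ran from 3.74 to 10.94 and from 2.64 to 10.95, with a difference of -0.82 ± 1.34.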
